A study of Homo sapiens with 2 samples.

Results

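The genes described here encode growth factor receptors of the cell surface. They are EGFR, ERBB2 and ERBB3 of the epidermal growth factor receptor family, the hepatocyte growth factor receptor MET, the fibroblast growth factor receptors FGFR1, FGFR2, FGFR3 and FGFR4, the FGF co-receptor KLB and the receptor AXL. They were taken by name from the deposited count table, where all 10 were present among 19927 genes. The cells were Huh7, an established human hepatocellular carcinoma line. One culture had been kept for 48 h in medium with the solvent DMSO, and the other for 48 h in medium with homochlorcyclizine dihydrochloride (HD), an antihistamine whose dose the sources used here do not give. Poly(A) mRNA of each was sequenced as 1 library.

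Receptor tyrosine kinases are single-pass membrane proteins that pair up when a ligand binds outside the cell and then phosphorylate tyrosines inside it. Adaptor proteins read these marks and pass the signal to the RAS-ERK and PI3K-AKT cascades, which drive growth and survival. In hepatocytes, EGFR and MET are known for their part in regeneration, and FGFR4 together with KLB receives FGF19, the gut hormone that restrains bile acid synthesis.

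The DMSO library held 38133894 counts and the HD library 40791119. Levels are given as CPM, which are counts scaled to library size, corrected by TMM factors of 1.002 and 0.998. Every ratio is HD over DMSO with an exact 95% counting interval. With 1 library per group there is no replicate check and no test, so a ratio describes these 2 libraries only and its interval covers counting error alone. In bulk RNA, fewer cells that express a gene and less RNA per cell cannot be told apart. The labelled cell type was matched by its markers. All 9 hepatocyte markers were detected, with ALB at 5244 CPM under DMSO and 5059 under HD. Their ratios ran from 0.725 (AFP) to 1.44 (APOB), with 4 above 1 and 5 below. Of the markers of other cells, the bile duct genes KRT19, EPCAM and SOX9 were at 156 to 386 CPM over both libraries with KRT7 at 0. The fibroblast, endothelial and immune lists summed to 30.9, 12.4 and 464 CPM under DMSO and to 36.5, 6.14 and 546 CPM under HD. LYZ, at 446 and 527 CPM, made up most of the immune sum, and the pan-leukocyte gene PTPRC had 2 and 6 counts. The part of these markers in the receptor values was not tested.

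The receptors differed modestly between the libraries. EGFR, ERBB2, ERBB3, MET and FGFR2 had ratios of 1.23 to 1.78, and FGFR1, FGFR3, FGFR4 and KLB ratios of 0.769 to 0.941. AXL was not detected in either library. The 12353 genes that averaged 1 CPM or more over both libraries are called tested. A difference of at least 2-fold with an interval that excluded 1 counted as higher or lower. By that rule 5.81% of these genes were higher and 5.10% were lower. None of the 9 detected receptor genes passed it in either direction. At 1.5-fold, where 14.0% of genes were higher and 14.1% lower, ERBB2 and ERBB3 were higher and no receptor gene was lower. The median log2 ratio of the 9 genes was 0.30 against -0.01 over all tested genes, and 5 of 9 were above a ratio of 1 against 48.9% of tested genes, and 4 of 9 below it against 51.1%.

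**Figure D1:**
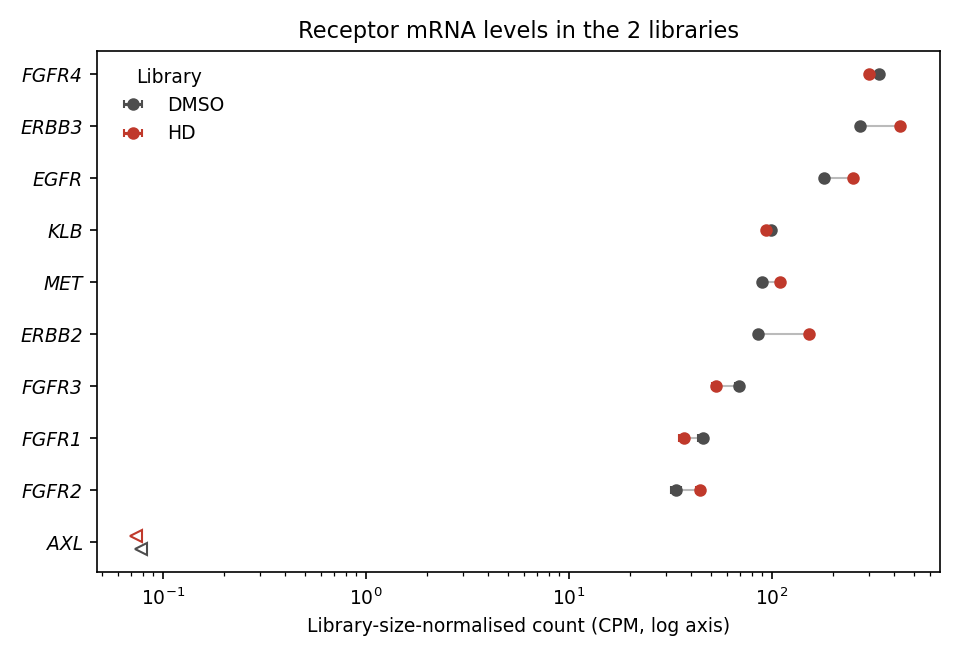
Library-size-normalised counts (CPM, log axis) of the 10 receptor genes in the DMSO library (grey) and the HD library (red), with 95% counting intervals that are mostly smaller than the points. Open triangles mark the upper limit for AXL, which had 0 counts in both libraries; the widest gaps are those of ERBB2 (85.4 and 152 CPM) and ERBB3 (272 and 429 CPM).

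ERBB2, the member of its family that has no known ligand of its own and serves as the preferred partner of the others (chromosome 17, 39688094 to 39728658 on GRCh38.p14), had the highest ratio. It was at 85.4 CPM (3262 counts) in the DMSO library and 152 CPM (6198 counts) in the HD library. The ratio was 1.78 (1.71 to 1.86), and 8.07% of tested genes had a higher one. The last 149 bases of the ERBB2 gene overlap MIEN1, and the sources used here do not say whether the counting used strand. MIEN1 itself had a ratio of 1.06 (0.959 to 1.17).

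ERBB3, a receptor for neuregulins whose own kinase is nearly inactive and which signals through its partners (chromosome 12, 56080108 to 56103505), was at 272 CPM (10378 counts) under DMSO. Under HD it was at 429 CPM (17479 counts). The ratio was 1.58 (1.54 to 1.62), higher than in 88.1% of tested genes.

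EGFR, the receptor for EGF, amphiregulin and related ligands (chromosome 7, 55019017 to 55211628), was at 181 CPM (6904 counts) under DMSO and 252 CPM (10247 counts) under HD. Its ratio was 1.39 (1.35 to 1.44), the lowest of the 3 family members. The non-coding gene EGFR-AS1 lies within EGFR, and without a known strand setting its reads cannot be told apart from those of EGFR. The fourth family gene, ERBB4, chosen after its values were seen, had 2 counts in each library. Summed over EGFR, ERBB2 and ERBB3, the family was at 538 CPM under DMSO and 833 CPM under HD, a ratio of 1.55 (1.52 to 1.58).

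MET, the receptor for hepatocyte growth factor (chromosome 7, 116672196 to 116798377), was at 89.1 CPM (3406 counts) under DMSO and 109 CPM (4454 counts) under HD, a ratio of 1.23 (1.17 to 1.28). This lies within the middle 50% of tested genes, whose log2 ratios ran from -0.35 to 0.33, and MET had 0.30. MET overlaps the non-coding gene COMETT over 15832 bases, with the same strand limit as for EGFR.

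The FGF receptors lay on either side of 1. Of tested genes, 21.5% had a higher ratio than FGFR2, 23.2% a lower one than FGFR3 and 27.5% a lower one than FGFR1. FGFR2 (chromosome 10, 121478330 to 121598458) was at 33.7 CPM (1289 counts) under DMSO and 44.5 CPM (1812 counts) under HD, a ratio of 1.32 (1.23 to 1.42), and was the only FGF receptor above 1. Its epithelial and mesenchymal splice forms bind different ligands and were counted together here. FGFR3 (chromosome 4, 1793293 to 1808867) was at 68.9 CPM (2633 counts) and 53.0 CPM (2157 counts), the lowest ratio among the receptor genes at 0.769 (0.726 to 0.814). FGFR1 (chromosome 8, 38411143 to 38468635) was at 45.6 CPM (1744 counts) and 36.9 CPM (1503 counts), a ratio of 0.809 (0.755 to 0.867). The non-coding gene LOC102723716 overlaps FGFR1 over 1869 bases, again with an unknown strand setting.

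FGFR4, the main FGF receptor of hepatocytes (chromosome 5, 177086915 to 177098144), was at 336 CPM (12837 counts) under DMSO and 301 CPM (12249 counts) under HD. The ratio of 0.896 (0.874 to 0.918) is a small difference, and 38.0% of tested genes had a lower one. KLB, which encodes beta-klotho, the membrane protein that holds FGF19 and FGF21 against their receptors (chromosome 4, 39406930 to 39451533), was at 99.5 CPM (3801 counts) and 93.6 CPM (3811 counts), a ratio of 0.941 (0.900 to 0.985). The other klotho gene, KL, chosen after its values were seen, had 0 and 2 counts.

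AXL, the receptor for GAS6 (chromosome 19, 41219223 to 41261766), had 0 counts in both libraries. That allows a level of up to 0.0785 CPM under DMSO and 0.0737 CPM under HD, taking 3 counts as the limit, so no ratio is given. Of its TAM family relatives, chosen after their values were seen, TYRO3 was at 100 and 126 CPM and MERTK at 10.0 and 10.1 CPM. The detected TAM receptors in these libraries were thus TYRO3 and MERTK.

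**Figure D2:**
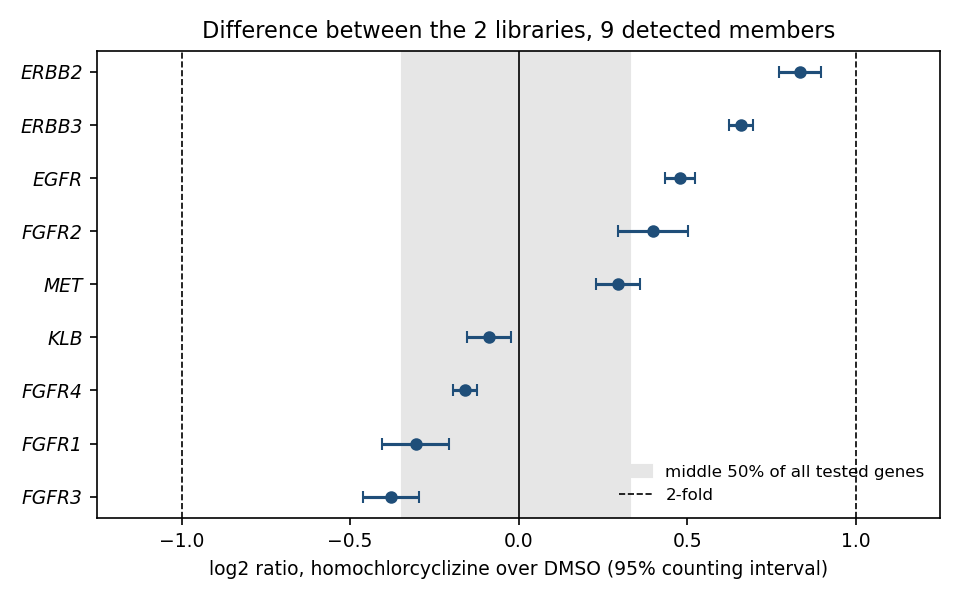
Log2 ratio (HD over DMSO) of the 9 detected receptor genes with 95% counting intervals; the grey band spans the middle 50% of all tested genes and dashed lines mark 2-fold. ERBB2 (0.83), ERBB3 (0.66), EGFR (0.48) and FGFR2 (0.40) lie to the right of the band, FGFR3 (-0.38) just to its left, and none reaches a dashed line.

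In the order of ratios, counting error separated some neighbours and not others. ERBB2 stood above ERBB3 by 1.13-fold (1.07 to 1.18) and ERBB3 above EGFR by 1.13-fold (1.09 to 1.18). EGFR was not separated from FGFR2 (quotient 1.06, 0.977 to 1.14), nor FGFR2 from MET (1.07, 0.988 to 1.17). MET stood above KLB by 1.30-fold (1.22 to 1.39). FGFR4 stood above FGFR1 by 1.11-fold (1.03 to 1.19). KLB and FGFR4 were not separated (1.05, 0.998 to 1.11), nor were FGFR1 and FGFR3 (1.05, 0.962 to 1.15). These quotients of ratios do not depend on how the libraries were scaled, and they hold no error between cultures.

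Levels of different genes were compared per length, in the deposited FPKM values. FGFR4 led in both libraries, at 113 FPKM under DMSO and 101 under HD, followed by ERBB3 at 61.3 and 96.5. By FPKM, FGFR4 was therefore 1st and ERBB3 2nd of 58 receptor tyrosine kinase genes examined in each library, and 14 of the 58 had no counts in either. A middle group under DMSO held ERBB2 (19.3), EGFR (17.8), KLB (16.6), MET (16.6) and FGFR3 (16.2). The intervals of KLB and MET, and of MET and FGFR3, overlapped there. FGFR1 (8.90) and FGFR2 (8.0) were lowest. Under HD the order ran ERBB2 (34.4), EGFR (24.7), MET (20.3), KLB (15.6), FGFR3 (12.4), FGFR2 (10.5) and FGFR1 (7.17), and no neighbouring intervals overlapped. These intervals hold no error in the lengths used. The FPKM values imply 2966 bases for FGFR4 and 4441 for ERBB3. In CPM, which ignore length, ERBB3 was above FGFR4 under HD (429 against 301) and below it under DMSO (272 against 336). The 9 receptor kinases described here took 67.6% of the summed FPKM of all 58 under DMSO and 65.6% under HD.

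Within families the makeup was similar in both libraries. ERBB3 gave 62.3% of the FPKM of EGFR, ERBB2 and ERBB3 under DMSO and 62.1% under HD. The share of ERBB2 was 19.7% and 22.1%, and that of EGFR 18.1% and 15.9%. FGFR4 gave 77.4% of the FPKM of the 4 FGF receptors under DMSO and 77.1% under HD. FGFR2 took 5.46% and 8.0%, FGFR3 11.0% and 9.44%, and FGFR1 6.07% and 5.46%. FGFR4 exceeded its co-receptor KLB 6.83-fold per length under DMSO and 6.50-fold under HD. Under HD the summed FPKM of the EGFR family (155) exceeded that of the FGF receptors (131), while under DMSO the FGF receptors (147) exceeded the EGFR family (98.4). This switch was seen only per length. In CPM, which ignore length, the EGFR family was larger under DMSO (538 against 484) and under HD (833 against 435).

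**Figure D3:**
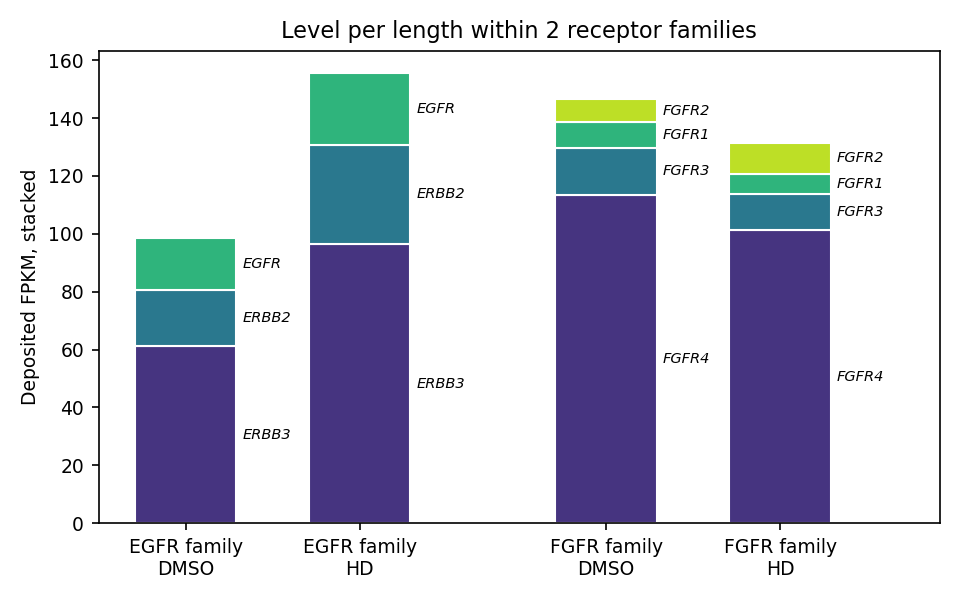
Deposited FPKM of the EGFR family (left pair of bars) and the FGF receptors (right pair), stacked by gene, in the DMSO and HD libraries. The EGFR family bar is taller under HD (155 against 98.4 FPKM) and the FGF receptor bar shorter (131 against 147 FPKM), while ERBB3 and FGFR4 fill most of their bars in both.

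The starts of these genes differ in sequence. RefSeq windows on GRCh38.p14 were listed for 8 of the 10 genes. Of these, 7 were kept, each at the first annotated start, and the 250 bases upstream were read. The windows of EGFR (ratio 1.39) and MET (1.23), and of FGFR4 (0.896) and its co-receptor KLB (0.941), are shown as examples on either side of 1. None of the 4 passed the 2-fold rule. Capitals mark GGGCGG, the GC box bound by Sp1, and GTAAACA, the core bound by forkhead factors, each on either strand. All 4 are plus-strand windows, at chr7:55018767-55019016 (EGFR), chr7:116671946-116672195 (MET), chr5:177086665-177086914 (FGFR4) and chr4:39406680-39406929 (KLB).
EGFR: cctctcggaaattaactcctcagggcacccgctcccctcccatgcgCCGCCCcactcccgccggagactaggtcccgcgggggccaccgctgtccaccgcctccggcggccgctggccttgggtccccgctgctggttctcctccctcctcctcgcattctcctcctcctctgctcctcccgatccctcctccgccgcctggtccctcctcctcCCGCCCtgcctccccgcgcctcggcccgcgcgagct
MET: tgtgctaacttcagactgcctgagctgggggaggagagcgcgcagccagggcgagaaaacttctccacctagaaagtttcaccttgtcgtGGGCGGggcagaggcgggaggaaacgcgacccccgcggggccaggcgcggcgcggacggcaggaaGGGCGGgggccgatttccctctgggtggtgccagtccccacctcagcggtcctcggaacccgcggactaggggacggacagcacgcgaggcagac
FGFR4: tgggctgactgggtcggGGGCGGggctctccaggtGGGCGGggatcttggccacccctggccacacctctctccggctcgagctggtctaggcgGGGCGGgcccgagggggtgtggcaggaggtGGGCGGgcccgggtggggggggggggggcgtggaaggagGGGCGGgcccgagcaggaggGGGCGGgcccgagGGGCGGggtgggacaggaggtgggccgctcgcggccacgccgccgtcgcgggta
KLB: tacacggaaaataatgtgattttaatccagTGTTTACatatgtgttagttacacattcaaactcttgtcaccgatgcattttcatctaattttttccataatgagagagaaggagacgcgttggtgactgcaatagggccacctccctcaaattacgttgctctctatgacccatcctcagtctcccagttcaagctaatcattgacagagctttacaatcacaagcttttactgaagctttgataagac
The FGFR4 window held 7 GC boxes and 79.6% G or C, above 96.3% of all 35116 windows of this length. Those of EGFR (73.6% G or C) and MET (68.4%) held 2 GC boxes each. The KLB window held none, was 39.2% G or C, and had 1 forkhead core. A GC box occurred in 42.6% of all windows and the forkhead core in 2.98%. Of the other genes, FGFR3 had 8 GC boxes, AXL 2 and the outermost ERBB2 start none. CCAAT (bound by NF-Y), TATAAA (the TATA box) and TGANTCA (bound by AP-1) were also searched on both strands. The ERBB2 window had 1 CCAAT and 1 TGANTCA. None of these 3 motifs was in the 4 windows shown, and they occurred in 32.0%, 10.7% and 6.57% of all windows. The EGFR window overlaps the annotated transcript LOC105375284, the MET window the long non-coding RNA COMETT and the ERBB2 window the neighbouring gene PGAP3. GC-rich windows belonged both to genes above a ratio of 1 (EGFR, MET) and to genes below it (FGFR3, FGFR4), and which start was used in these cells was not measured.

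Genes beside the receptors were on either side of 1. Of 18 nearest tested neighbours of the 9 detected genes, 10 were on the same side of 1 as the receptor. At least 2-fold lower were 2 of them, against 5.10% of tested genes. ERBB3 had a ratio of 1.58 while PA2G4, which lies 1.05 kb after it, was at 383 CPM under DMSO and 172 CPM under HD, a ratio of 0.449 (0.436 to 0.462). RPS26, on the other side of ERBB3, had a ratio of 0.618 (0.598 to 0.638). TACC3, a spindle protein gene 48.1 kb before FGFR3, had a ratio of 0.264 (0.250 to 0.279), and LETM1, 2.61 kb after FGFR3, one of 0.590 (0.559 to 0.622). PGAP3 and GSDMB, beside ERBB2, had ratios of 1.32 (1.11 to 1.59) and 1.18 (1.02 to 1.36). The neighbours of EGFR, SEC61G and LANCL2, were at 0.927 and 0.986.

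Ligands of the EGFR family had ratios from 0.868 to 4.38 among those tested. Of 11 ligand genes, 5 were tested, 3 were at least 2-fold higher under HD (against 5.81% of tested genes) and none was lower, with a median log2 ratio of 1.69. With a filter of 5 CPM only AREG and EGF were tested, AREG alone was called higher, and the median of these genes was 1.09. With no filter the median was 1.05. AREG, which encodes amphiregulin, was at 12.7 CPM (485 counts) under DMSO and 55.7 CPM (2269 counts) under HD, a ratio of 4.38 (3.98 to 4.85). HBEGF, the heparin-binding ligand, was at 1.83 and 6.78 CPM, a ratio of 3.66 (2.84 to 4.88). BTC, betacellulin, was at 2.30 and 7.49 CPM, a ratio of 3.23 (2.56 to 4.17). NRG4, a ligand of ERBB4, had a ratio of 0.868 (0.701 to 1.07). EGF, chosen after its values were seen, was at 18.4 and 19.1 CPM. TGFA, also chosen after its values were seen, had 0 counts under DMSO and 10 under HD. The lower end of the counting interval of its ratio was 2.10. Per length, AREG led these ligands in both libraries, at 10.3 FPKM under DMSO and 45.1 under HD, against 2.96 and 3.07 for EGF.

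Few FGF ligands reached the level filter. Of 22 genes, 10 had no counts in either library and 5 were tested, with a median log2 ratio of 0.76. Of these 5, 1 was at least 2-fold higher and none lower, against 5.81% and 5.10% of tested genes. The call, FGF2, was lost with a filter of 5 CPM and on the FPKM scale. At 5 CPM only FGF19 and FGF12, the latter chosen after its values were seen, were tested, with a median of 0.29. FGF19, the endocrine ligand of FGFR4 with KLB, was at 18.6 CPM (709 counts) under DMSO and 31.4 CPM (1279 counts) under HD, a ratio of 1.69 (1.54 to 1.86), under the 2-fold rule. FGF2 was at 1.62 and 3.56 CPM, a ratio of 2.18 (1.62 to 3.01). FGF11, an intracellular member of the family that is not secreted as a ligand, had a ratio of 1.87 (1.52 to 2.33), and FGF9 one of 1.36 (1.01 to 1.83). FGFR4 and KLB, its receptor and co-receptor, had ratios of 0.896 and 0.941, and none of these 3 genes passed the 2-fold rule.

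Of 10 genes for MET and AXL ligands and the proteases and inhibitors that process them, 5 were tested, with a median log2 ratio of 0.34. HGF, the MET ligand, had no counts in either library and was named after its value was seen. HPN, the membrane protease hepsin, which can activate pro-HGF, was at 32.2 CPM (1229 counts) under DMSO and 108 CPM (4407 counts) under HD, a ratio of 3.36 (3.16 to 3.59). SPINT1, an inhibitor of such proteases, was at 92.0 and 170 CPM, a ratio of 1.85 (1.77 to 1.92). PLAU, the urokinase gene, was at 10.4 and 4.08 CPM, a ratio of 0.392 (0.324 to 0.469), and MST1, the ligand of the MET relative MST1R, had a ratio of 1.27 (1.17 to 1.38). HPN was the 1 gene at least 2-fold higher and PLAU the 1 at least 2-fold lower, against 5.81% and 5.10% of tested genes.

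Among 18 other co-receptors and ligand-binding proteoglycans, 12 were tested, with a median log2 ratio of 0.14. None was at least 2-fold higher and 1 was lower, against 5.81% and 5.10% of tested genes. SDC1, syndecan-1, was at 101 CPM (3841 counts) under DMSO and 44.9 CPM (1826 counts) under HD, a ratio of 0.446 (0.422 to 0.472). SDC4, another heparan sulfate proteoglycan of the syndecan family, was at 197 and 339 CPM, a ratio of 1.72 (1.67 to 1.77). CDH2, N-cadherin, which can bind FGF receptors, had a ratio of 1.74 (1.66 to 1.84), and FGFBP3, a carrier of FGFs, one of 1.72 (1.34 to 2.23). GPC4, a glypican below the level filter and chosen after its values were seen, had 0 counts under DMSO and 48 under HD. The lower end of the counting interval of its ratio was 11.8. The syndecans SDC1 and SDC4 thus lay on opposite sides of 1.

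Of 49 other receptor tyrosine kinases, 24 were tested, 3 were at least 2-fold higher and 1 was lower, against 5.81% and 5.10% of tested genes. Their median log2 ratio of 0.35 was near that of the receptor genes described here (0.30). Of the 24, 18 were above a ratio of 1, against 48.9% of tested genes. INSR, the insulin receptor, was at 55.5 CPM (2119 counts) under DMSO and 115 CPM (4688 counts) under HD, a ratio of 2.08 (1.97 to 2.19). FLT1, a VEGF receptor, was at 1.39 and 9.29 CPM, a ratio of 6.59 (5.01 to 9.10). AATK had a ratio of 2.12 (1.5 to 3.12) and STYK1 one of 0.266 (0.148 to 0.426), both at under 3 CPM in each library. STYK1 passed the level filter only through the DMSO library.

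Of 28 adaptors and RAS-ERK and PI3K genes, which form the shared cascade below the receptors, 27 were tested, with a median log2 ratio of 0.05. At 2-fold, 1 was higher and none lower, against 5.81% and 5.10% of tested genes. At 1.5-fold, 5 of the 27 were higher, against 14.0% of tested genes. GAB2, a docking adaptor, was at 15.5 CPM (591 counts) under DMSO and 32.6 CPM (1329 counts) under HD, a ratio of 2.11 (1.91 to 2.33). SOS2, a RAS exchange factor, STAT3, a transcription factor, and PIK3R1, a PI3K regulatory subunit, had ratios of 1.92 (1.76 to 2.10), 1.60 (1.54 to 1.66) and 1.59 (1.53 to 1.66). Of 24 genes that switch receptors off or remove them from the surface, 23 were tested, with a median of 0.17. At 2-fold, 2 were higher (against 5.81% of tested genes) and none lower (against 5.10%). PTPRJ, a receptor-type phosphatase that can act on EGFR and MET, was at 27.4 and 70.0 CPM, a ratio of 2.55 (2.38 to 2.75). CBLB, a ubiquitin ligase of activated receptors, was at 27.0 and 56.7 CPM, a ratio of 2.10 (1.95 to 2.26). PTPRF, another receptor-type phosphatase, and LRIG1, a membrane protein that lowers EGFR, had ratios of 1.46 (1.42 to 1.5) and 1.36 (1.22 to 1.51).

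Of 13 sheddases and their partners, 10 were tested, with a median log2 ratio of 0.23. Some sheddases free EGF-type ligands from the membrane, but the list also holds metalloproteinase inhibitors, so its median does not stand for ligand release. None passed 2-fold in either direction, against 10.9% of tested genes. TIMP2, a metalloproteinase inhibitor, had a ratio of 1.62 (1.56 to 1.70), ADAM8 one of 1.49 (1.19 to 1.88), ADAM9 one of 1.38 (1.34 to 1.42) and ADAM15 one of 0.766 (0.714 to 0.822). Of 17 genes whose transcription is known to follow ERK activity, 16 were tested, with a median of 0.42. At 2-fold, 2 were higher and none lower, against 5.81% and 5.10% of tested genes. DUSP5, an ERK phosphatase, was at 21.5 CPM (821 counts) under DMSO and 64.5 CPM (2624 counts) under HD, a ratio of 3.0 (2.77 to 3.25). SPRED3, an inhibitor of the pathway, had 15 and 69 counts and passed the level filter only through the HD library. PHLDA1, a feedback gene of receptor signalling, and the phosphatase gene DUSP4 had ratios of 1.92 (1.83 to 2.02) and 1.82 (1.72 to 1.93). DUSP6, chosen after its values were seen, was at 84.9 and 79.2 CPM. Of the 16 tested genes of this list, 12 were above a ratio of 1 and 4 below, against 48.9% and 51.1% of tested genes.

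**Figure D4:**
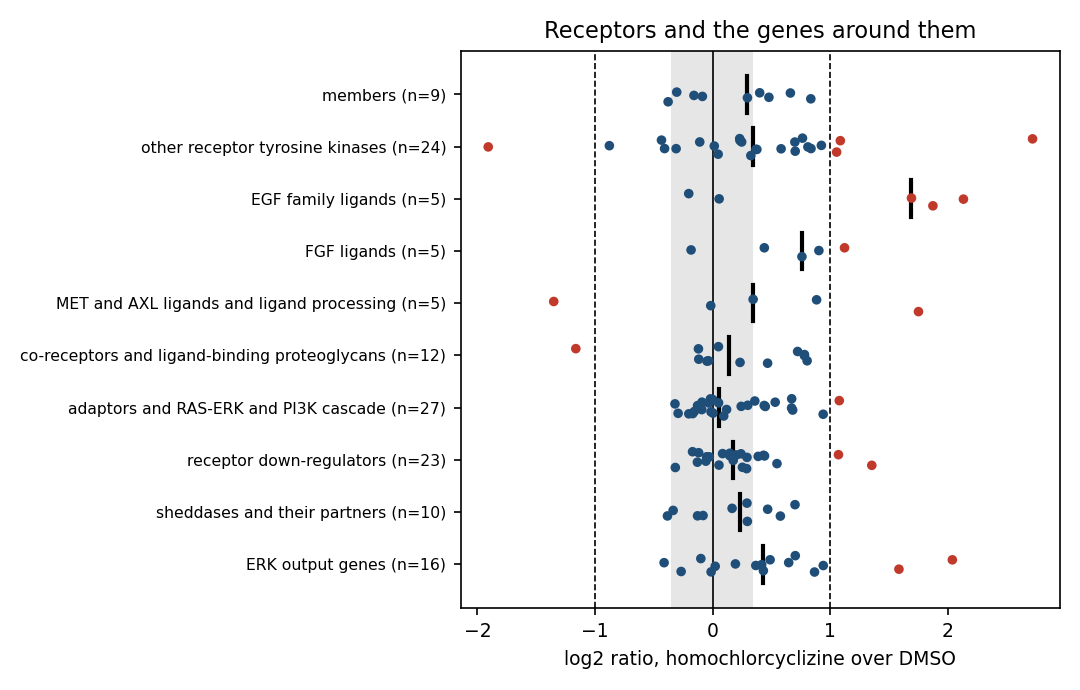
Log2 ratio (HD over DMSO) of every tested gene in the receptor set and 9 related lists; black bars are list medians, red points are genes at least 2-fold different whose interval excludes 1, the grey band spans the middle 50% of all tested genes and dashed lines mark 2-fold. The EGF family ligands have the highest median (1.69) and the adaptor and cascade list the lowest (0.05).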

How the data were processed

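Per the labels, the 2 libraries are poly(A) mRNA of Huh7 cells, 1 with DMSO and 1 with homochlorcyclizine dihydrochloride. Gene-level raw counts were deposited by the authors as 1 table, whose columns the labels tie to the samples, and 1 table of FPKM values per library. Per the submitters' processing notes the build was hg38. The sources used here name no aligner, counter, strand setting or annotation. In 14778 genes with counts in both libraries, ratios of the deposited FPKM differed from ratios of counts over library totals by at most 3.13e-05%.

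Library sizes were scaled by TMM (edgeR 4.0.16, R 4.3.3). Log2 ratios used a prior count of 1, and intervals are Clopper-Pearson at 95% on the gene's summed count (Python 3.11.15, scipy 1.17.1). Intervals of single levels are exact Poisson, and those of quotients of ratios are Wald intervals on log counts. PCR reads are not independent molecules, so all cover counting error only. No test was made with 1 library per group. The 2-fold rule was also run on simulated counts that held counting error only, so that run cannot speak to variation between cultures. The receptor genes and the 9 related lists and 5 marker lists were chosen with earlier results of these data known. Beside the receptors, up to 4 genes per list with the largest absolute log2 ratio at a mean of at least 1 CPM are named. The nearest tested neighbours, some genes that overlap a receptor gene or its window, and the marker genes are named too. Any other gene is said to be chosen after its values were seen. Gene positions and sequences are from RefSeq on GRCh38.p14, matched by symbol. Alternatives were scaling by library total, by DESeq2 1.42.0 size factors or by upper quartile, no filter or 5 CPM, a prior count of 5, FPKM with a pseudocount of 0.1, and a fold of 1.5.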

Additional observations from a re-analysis of the deposited data

How the results depend on the processing

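No paired analysis was possible because each group has 1 library, and for the same reason no library could be left out. The log2 ratio of each of the 9 detected receptor genes kept its sign and stayed within its counting interval under the 3 other scalings, the other prior count and the FPKM scale, while the filters and the fold cannot move it. ERBB2 ran from 0.83 to 0.86, EGFR from 0.47 to 0.51, FGFR3 from -0.38 to -0.35 and KLB from -0.09 to -0.06. Other scalings moved every log2 ratio by at most 0.03. At a fold of 1.5, 2 receptor genes were higher, and over all genes 1735 were higher and 1736 lower (14.0% and 14.1% of tested genes). Under it 9 other receptor kinases were higher and 2 lower, and higher counts were 3 for FGF ligands, 2 for MET and AXL ligands and processing, 4 for co-receptors, 5 for adaptors and cascade, 1 for sheddases and 6 for ERK output genes. With no filter, 1197 genes were higher and 946 lower, with 5 EGF family ligands higher, 2 FGF ligands higher and 1 lower, 3 MET and AXL genes higher and 2 lower, 1 co-receptor higher and 1 sheddase gene lower. Medians without the filter were 0.48 for other receptor kinases, 1.05 for EGF family ligands and 0.88 for MET and AXL genes. At 5 CPM, 485 of all genes were higher and 490 lower, and 0 other receptor kinases were lower. There 1 EGF family ligand (median 1.09, of AREG and EGF), 0 FGF ligands (median 0.29, of FGF19 and FGF12) and 1 ERK output gene were higher. On FPKM, 620 of all genes were higher and 584 lower, and 0 FGF ligands were higher. Other receptor kinases called higher went from 3 to 2 at 5 CPM and on FPKM, where AATK was lost. Fewer or more genes entered under the filters, so list counts there cannot be set against the shares at 1 CPM. A pseudocount of 0.1 pulls low FPKM toward each other. Counting depth limits genes at low level, such as SPRED3 (15 and 69 counts) and FGF2 (62 and 145 counts).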
